A study of Homo sapiens with 2 samples.

Results

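Intraflagellar transport (IFT) genes encode the protein trains that carry cargo along the axoneme of the primary cilium. Members were chosen by name and by having a value: all genes whose current symbol is IFT followed by a number, with a log ratio on both arrays. Of 10469 named genes, 9 met this. The family was picked with log ratios of these arrays already known, so its values are given as a description. They come from 293T cells, a human embryonic kidney line, on 2 dual-colour arrays, 1 for each time. On each array RNA of untreated cells (0 h) carried Cy5, and RNA of cells given 10 µM Y27632, a ROCK kinase inhibitor, for 3 h or 6 h carried Cy3. Both sample titles also carry the word control, which the titles do not explain. All cells were kept in medium with serum, and the labels name no vehicle, so the inhibitor cannot be told apart from handling or time in culture. There was 1 array per time and no dye swap, so values below are single measurements without a test. Whether both arrays shared 1 control RNA is not in the labels.

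The trains consist of an IFT-B complex, which moves outward with kinesin motors, and an IFT-A complex, which works with a dynein in the return direction. IFT-B has a core, IFT-B1, and a peripheral part, IFT-B2. The BBSome, a separate coat, rides on the trains and carries membrane proteins out of the cilium. Cilia assemble mainly in resting cells, and actomyosin contraction, which ROCK drives, is known to restrain their assembly. The series asks what ROCK inhibition does to transcripts, and the labels mention no measurement of cilia.

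Each value is the deposited log ratio of both channels of an array, read as log2. Which channel is the numerator is not given in the sources used here. Thus a positive value means more transcript in treated cells if it is treated over control, and less if it is control over treated. With the sign turned, positive and negative trade places and sizes stay. The table holds no levels, so whether 293T cells express a gene or a cell type marker could not be checked.

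The RefSeq gene table (GRCh38.p14) lists 18 protein-coding IFT number symbols. Of these, 9 had a named probe, each with 1 probe, and all 9 probes had a value on both arrays, so no member was lost for want of a value. The other 9 (IFT20, IFT43, IFT46, IFT56, IFT70A, IFT70B, IFT80, IFT140 and IFT172) had no probe whose listed name settled on them and are not analysed here. The members were listed under older names: CCDC2 for IFT74, CDV1 for IFT81, TTC10 for IFT88, C20orf9 for IFT52, C1orf41 for IFT25, RABL4 for IFT27, RABL5 for IFT22, ESRRBL1 for IFT57 and WDR10 for IFT122. The gene table also holds the copies IFT57P1 and IFT122P3, which probes for IFT57 and IFT122 may not tell apart, and an antisense transcript, IFT74-AS1.

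Ciliary genes are known targets of RFX transcription factors, which bind the X-box, so the stretches of the members' promoters that hold its letters are shown first. The RefSeq promoter table (GRCh38.p14, 250 bases before to 50 after each start) had 11 promoters for 8 members and none for IFT22. Both strands were searched for the half-site GTTGCC and for the X-box as a pair of half-sites. The pair was searched as GT, 2 free bases, CC, a gap of 1 to 3 free bases, GG, 2 free bases and AC. A pair can contain the half-site, and in IFT74 and IFT122 it did. Sequences are written 5′ to 3′ on the gene's strand, and capitals mark the matching letters.

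IFT74 (chr9:26956372-26956408, plus strand, pair beginning 28 bases before the third listed start): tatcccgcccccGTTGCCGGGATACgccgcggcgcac
IFT122 (chr3:129440200-129440226, plus strand, pair beginning 12 bases before the start): ccgcgcatgtacGTTGCCAGGGGTAAC
IFT57 (chr3:108222429-108222466, minus strand, pair beginning 30 bases before the start): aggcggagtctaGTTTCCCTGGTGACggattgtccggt
IFT57 (chr3:108222415-108222439, minus strand, second pair beginning 3 bases before the start): gattgtccggtgGTCGCCTGGTAAC
IFT81 (chr12:110124345-110124362, plus strand, half-site at the start itself): ggcctagcaaccGTTGCC
IFT88 (chr13:20567161-20567178, plus strand, half-site beginning at base 17 after the start): gattccgcgcttGGCAAC
IFT25 (chr1:53946383-53946412, minus strand, half-site beginning 95 bases before the start): gagggggctgggGGCAACcaggcgccgtgg
IFT27 (chr22:36776143-36776172, minus strand, half-site beginning 41 bases before the start): ggagcttttggcGGCAACcaatcgagggtc

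The half-site stood in a promoter of 6 of 8 members, against 16.1% of the 8422 named genes measured on both arrays with a promoter in the table, and in 12.2% of all 35116 promoters. A pair stood in 3 of 8 members, against 4.79% of those genes and 3.51% of all promoters. IFT74 also had a half-site beginning 237 bases before its first listed start, and IFT52 had no match in its window. The median GC content was 70% over the 11 member promoters and 58.7% over all promoters. With each gene's promoters averaged first, it was 64.4% for the 8 members and 64% for the measured genes. These are letter matches and not shown to be bound. Over the whole table the medians with and without these letters lay close together: genes with the half-site had a median of 0.06 on either array (n = 1357), and genes without it 0.02 and 0.02 (n = 7065). Genes with a pair had 0.00 and 0.02 (n = 403), and genes without one 0.03 and 0.03 (n = 8019).

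All 9 IFT genes had positive log ratios at both times, though IFT27 lay so close to 0 that another centring left 8 of 9 at 6 h. Positive values on both arrays were held by 40.4% of all named genes. That share includes families not thought to act in kidney lines, such as 123 olfactory receptor genes, of which 12.2% were positive on both. These receptors were 123 of the 10469 named genes, too few to move the share much. How far other such genes lower it was not tested. The members' median was 0.42 at 3 h and 0.46 at 6 h, against 0.02 and 0.01 over all named genes. The values ran from 0.10 to 1.06 at 3 h and from 0.02 to 0.90 at 6 h, led by the core subunits IFT74, IFT81 and IFT88. The error available for a single value is the SD between probes of one gene, which was 0.31 at 3 h and 0.33 at 6 h, taken from 572 genes that have several probes. The spread between cultures is not part of it. With single arrays, precision is limited by their number.

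**Figure D1:**
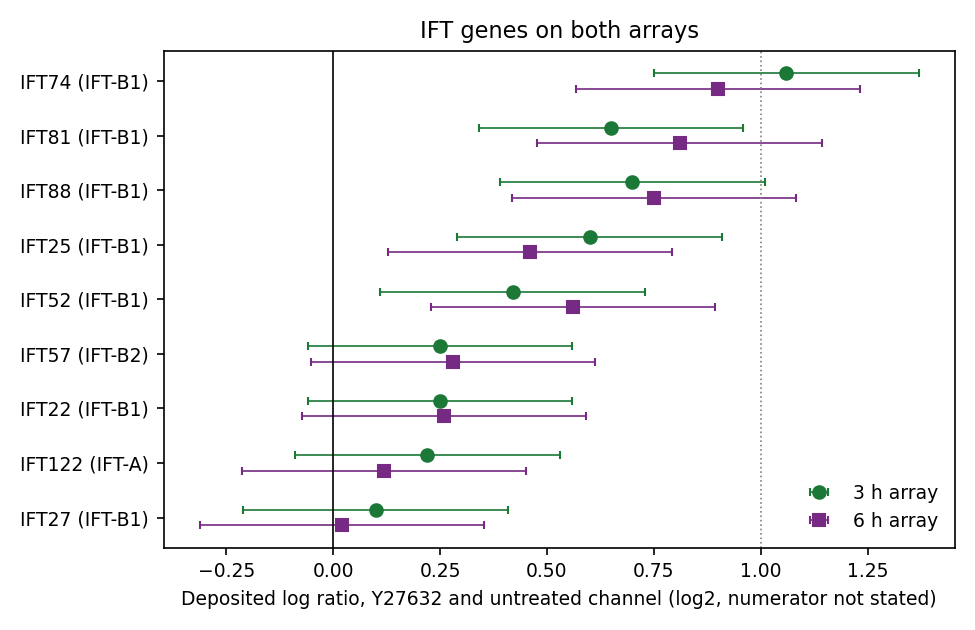
Log ratios (log2, numerator not stated) of the 9 IFT genes on the 3 h array (circles) and the 6 h array (squares), ordered by the mean of both, with the subcomplex in brackets. Error bars are the SD between probes of one gene over the table, 0.31 at 3 h and 0.33 at 6 h, the line marks 0 and the dotted line the size of 1; IFT74 is farthest from 0 on both arrays and IFT27 nearest.

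IFT74 and IFT81 bind each other and form the part of the IFT-B1 core that holds tubulin. IFT74 (probe H300000186) had 1.06 at 3 h and 0.90 at 6 h, or 2.08-fold and 1.87-fold. IFT81 (probe H300019043) had 0.65 and 0.81, or 1.57-fold and 1.75-fold. Both were high on both arrays, IFT74 above 99.6% and 99.1% of named genes and IFT81 above 96.8% and 98.5%. IFT74 lay above IFT81 by 0.41 at 3 h and by 0.09 at 6 h. The SD of a difference between 2 genes with 1 probe each is 0.44 at 3 h and 0.47 at 6 h, so these partners did not differ beyond their error.

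IFT88, the subunit lost in a classical mouse model of polycystic kidneys, and IFT52, which holds IFT88 in the core, were also positive. IFT88 (probe H300019591) had 0.70 at 3 h and 0.75 at 6 h, 1.62-fold and 1.68-fold. IFT52 (probe H200003469) had 0.42 and 0.56, 1.34-fold and 1.47-fold. IFT88 stood above 97.4% and 97.8% of named genes and IFT52 above 89.2% and 94.0%. IFT52 minus IFT88 was −0.28 at 3 h and −0.19 at 6 h, within the error of a difference.

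IFT25 and IFT27 bind each other, and IFT27, a Rab-like GTPase, is needed for the exit of BBSome cargo and Hedgehog receptors from the cilium. IFT25 (probe H200004818) had 0.60 at 3 h and 0.46 at 6 h. IFT27 (probe H200004975) had 0.10 and 0.02, the lowest of the members on both arrays and above 60.2% and 50.1% of named genes. Although the proteins are partners, IFT25 exceeded IFT27 by 0.50 at 3 h and 0.44 at 6 h, which is 1.14 and 0.94 times the SD of such a difference.

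The remaining members lay between IFT27 and the others described. IFT22 (probe H300019160), a second Rab-like GTPase that docks on IFT74 and IFT81, had 0.25 at 3 h and 0.26 at 6 h. It lay below IFT74 by 0.81 and 0.64, or 1.85 and 1.36 times the SD of a difference. IFT57 (probe H200007935), of IFT-B2, had 0.25 and 0.28, and IFT122 (probe opHsV0400007587), of IFT-A, had 0.22 and 0.12. With 1 member each, IFT-B2 and IFT-A cannot be described as complexes here. The median of the 7 IFT-B1 members was 0.60 at 3 h and 0.56 at 6 h.

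In order of their values, the members at 3 h were IFT74, IFT88, IFT81, IFT25, IFT52, IFT22 level with IFT57, IFT122 and IFT27. At 6 h the order was IFT74, IFT81, IFT88, IFT52, IFT25, IFT57, IFT22, IFT122 and IFT27. Every pair of neighbours in either order differed by less than the SD of a difference, the widest gap being 0.36 between IFT74 and IFT88 at 3 h. The ends of the order, IFT74 and IFT27, differed by 0.96 at 3 h and 0.88 at 6 h, which is 2.19 and 1.87 times that SD. That SD holds for 2 genes fixed beforehand, and the ends of 9 values lie farther apart by error alone. The SD over the 9 members, 0.31 at either time, was near that between probes of one gene, 0.31 and 0.33. Whether the ends differ beyond error was not tested.

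A log ratio of at least 1, a 2-fold difference in base 2, was reached by IFT74 alone at 3 h and by no member at 6 h. Among all named genes 0.525% lay at 1 or above at 3 h and 0.564% at 6 h. At −1 or below there was no member, against 0.831% and 0.678% of genes. A smaller size of 1.5-fold was reached on the positive side by 4 of 9 members at 3 h, IFT25, IFT74, IFT81 and IFT88, against 4.56% of genes. At 6 h it was reached by 3 of 9, IFT74, IFT81 and IFT88, against 5.28%, and IFT52 at 0.56 fell just short of it. Those 3 passed it at both times, as did 2.52% of genes.

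**Figure D2:**
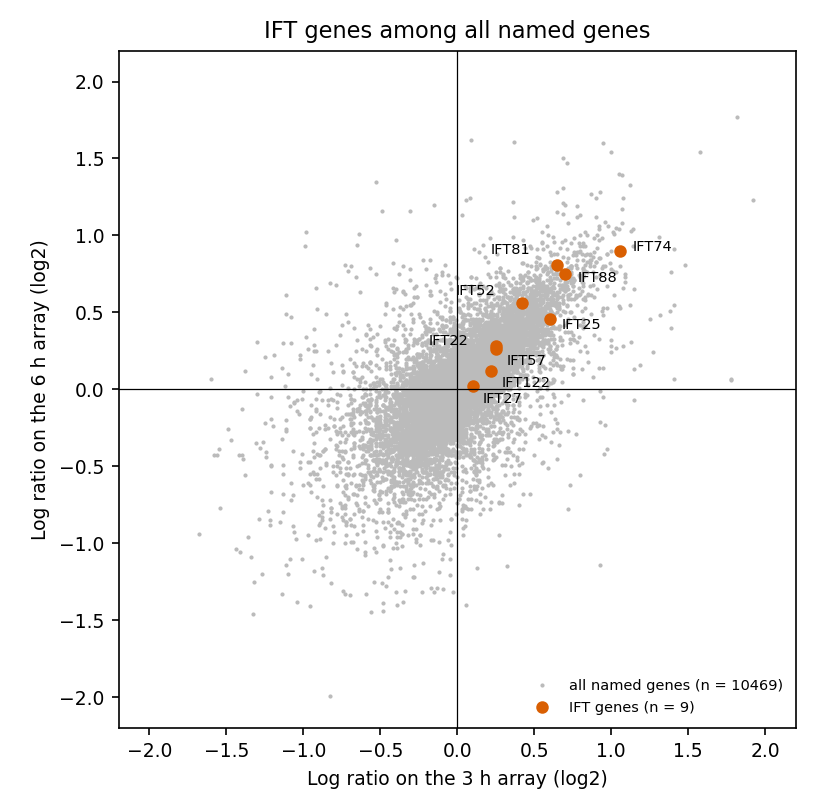
Log ratio on the 3 h array (x axis, log2) against the 6 h array (y axis, log2) for 10469 named genes (grey) and the 9 IFT genes (orange, named). The arrays may share a control RNA; the IFT genes spread from IFT27 near the centre to IFT74 at 1.06 and 0.90, and none lies on the negative side of either axis.

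Between the arrays the members stayed close to their own values. The 6 h value minus the 3 h value had a median of 0.01 over the 9 genes and ran from −0.16 for IFT74 to 0.16 for IFT81. Its size had a median of 0.10, against 0.13 over all named genes. Of the members, 5 had a positive and 4 a negative difference, against 46.9% and 51.2% of genes, and none reached 1.5-fold in either direction, against 3.05% and 2.7%. With 1 array per time, time and array cannot be told apart.

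The probe IDs of the array fall into series, and the IFT genes were set beside the other probes of their own series. The 4 members with H200 probes had a median of 0.34 at 3 h and 0.37 at 6 h, where all named H200 probes had 0.03 and 0.04. The 4 members with H300 probes had 0.68 and 0.78, where all H300 probes had −0.01 and 0.00. IFT74, IFT81, IFT88 and IFT22 are those with H300 probes, so the higher members came mostly from that series, whose probes as a whole were no higher. The part of the probe in these values was not tested.

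With distance taken over the 2 values of each gene, the 5 named genes nearest to IFT74 were PPP2R5C, FCF1, SMC3, TRUB2 and FNBP1L. PPP2R5C had 1 at 3 h and 0.90 at 6 h, FCF1 had 1.14 and 0.93, and FNBP1L had 1.06 and 0.80. SMC3 and TRUB2 both had 0.97 and 0.88. Likeness over 2 arrays says little beyond size and sign.

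Other genes of IFT subunits and of proteins that bind the trains, whose current symbols lack an IFT number, were less uniform. CLUAP1, an IFT-B2 subunit that binds IFT57, had −0.17 at 3 h and −0.32 at 6 h, on the other side of 0 from IFT57. RABL2B, a GTPase that joins departing trains, had 0.13 and 0.09 as the mean of 2 probes, which disagreed in sign on both arrays (0.30 and −0.04 at 3 h, 0.25 and −0.08 at 6 h). The IFT-A subunit TTC21B had 0.27 and 0.54, and TULP3, which links IFT-A to membrane cargo, had 0.20 and 0.24. WDR19 had 0.55 at 3 h and −0.05 at 6 h, and WDR35 −0.05 and 0.15. The IFT-A subunits thus had positive values on both arrays for IFT122 and TTC21B and mixed signs for WDR19 and WDR35.

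Measured motor genes lay mostly on the positive side, with medians below that of the IFT genes on both arrays. Of 16 listed, 7 had values on both arrays, and none of the DYNC2 genes of the return dynein did. The outward motor is a kinesin-2 of KIF3A, KIF3B and the adaptor KIFAP3. KIF3A had 0.36 at 3 h and 0.42 at 6 h, KIFAP3 had 0.34 and 0.31, and KIF3B 0.14 and 0.08. KIF17, a second ciliary kinesin, had 0.44 and 0.38, while KIF3C, which can pair with KIF3A in place of KIF3B, had −0.09 on both arrays. Of the dynein light chains, which also serve cytoplasmic dynein, DYNLT3 had 0.32 and then 0.28, and DYNLRB1 0.24 and then 0.15. Of 7 motor and adaptor genes measured, 6 were positive on both arrays, against 40.4% of all genes. None of the 7 reached 1.5-fold on the positive side, where 4.56% of all genes did at 3 h and 5.28% at 6 h. For 7 genes, none is near those shares. The medians of the 7 were 0.32 and 0.28.

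Genes of the BBSome and its assembly, the cargo coat of the trains, had a median of 0.31 at 3 h and 0.52 at 6 h. Of the 7 genes measured, 6 were positive on both arrays, against 40.4% of all genes. LZTFL1, which regulates entry of the BBSome into cilia, had 0.79 and 0.61, and the subunit gene BBS2 had 0.66 and 0.63. ARL6, the GTPase that recruits the coat to membranes, had 0.23 and 0.62. MKKS, a chaperonin-like assembly factor, had 0.32 and 0.52, and of the subunit genes TTC8 had 0.31 and then 0.41 and BBS4 0.14 and then 0.15. BBS5 had −0.04 and 0.30. LZTFL1 and BBS2 reached 1.5-fold at 3 h, or 2 of 7, against 4.56% of all genes. At 6 h these and ARL6 reached it, or 3 of 7, against 5.28%.

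All 5 measured genes of the transition zone and neighbouring ciliary base, the gate that IFT trains pass, were positive on both arrays. Of all named genes, 40.4% were. With each probe series centred it was 4 of 5, since this put TCTN3 at 0 at 3 h. The medians of the 5 genes were 0.60 and 0.42. AHI1 had 0.79 and 0.66 and IQCB1 0.60 and 0.48, while TMEM237 had 0.12 and 0.18 and TCTN3 0.03 and 0.09. INVS, the gene of inversin, had a mean of 0.80 at 3 h and 0.42 at 6 h, from probes that disagreed: one gave 1.75 and 0.89, the other −0.16 and −0.06. The 6 h median of the 5 genes is this INVS mean. It was 0.48 when the probe farthest from 0 was taken for each gene.

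Regulators of cilium assembly and disassembly were spread around 0, with medians of 0.02 and 0.11 over 12 genes. On both arrays 6 were positive and 3 negative (5 negative when centred on the named genes), against 40.4% and 36.3% of all genes. Ranked by the mean of both arrays, the highest was NEK2, a mitotic kinase that promotes disassembly, at 0.50 and 0.61. Next were the microtubule-depolymerising kinesins KIF2A at 0.24 and 0.55 and KIF24 at 0.25 and 0.23. The lowest by that mean were CEP97, part of the centriole cap that blocks cilia, at −0.28 and −0.15, and OFD1 at −0.18 and −0.25. The mitotic kinase PLK1 followed at −0.11 and −0.29. At 3 h alone, AURKA at −0.26 lay below OFD1 and PLK1, and ARL3 at 0.32 lay above KIF2A and KIF24.

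Hedgehog signalling passes through the cilium and depends on IFT. The median of its 10 genes measured on both arrays was −0.23 at 3 h and −0.22 at 6 h. On both arrays 7 were negative and 1 positive, against 36.3% and 40.4% of all genes. Outside these 10, the receptor gene PTCH1 had 0.95 on the 3 h array alone, and CDON −0.09 on the 6 h array alone. At the low end by the mean of both arrays, the co-receptor gene GAS1 had −0.71 and −0.56. SUFU, which restrains GLI factors, had −0.32 and −0.42, and the ciliary receptor gene GPR161 −0.39 and −0.17. The probes of GPR161 gave −0.43 and −0.35 at 3 h and −0.52 and 0.18 at 6 h. At the high end HHIP, which binds the ligands, had 0.28 and 0.13, GLI2 −0.14 and 0.24 and SMO −0.11 and 0.10.

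Of the transcription factors of ciliary genes, 5 were measured on both arrays, with medians of −0.25 and −0.54. RFX3, a ciliary RFX factor, had −0.89 at 3 h and −0.87 at 6 h, on the other side of 0 from all IFT genes. RFX5, known for MHC class II genes, had 0.16 and 0.33, and RFX2 had −0.09 and 0.04. FOXJ1, the regulator of motile cilia, had −0.25 and −0.71, and MYB −0.38 and −0.54.

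Multiciliated cell markers, genes of motile cilia that IFT trains also build, had medians of −0.29 and −0.31 over 8 genes, FOXJ1 among them. Of these, 7 of 8 were negative on both arrays, against 36.3% of all genes. Outside these 8, the markers CFAP53 and DNAH9 had 0.53 and −0.46 on the 3 h array alone. RSPH1, of the radial spoke, had −0.69 and −0.99, and HYDIN, of the central pair, −0.39 and −0.43. Of the axonemal dynein genes, DNAI1 had −0.04 and then 0.16 and DNAH11 −0.32 and then −0.05, and CAPS had −0.03 and −0.09. Olfactory receptor genes, a family not thought to act in kidney lines, likewise had medians of −0.19 and −0.22 (n = 123). Its relation to the marker values was not tested.

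**Figure D3:**
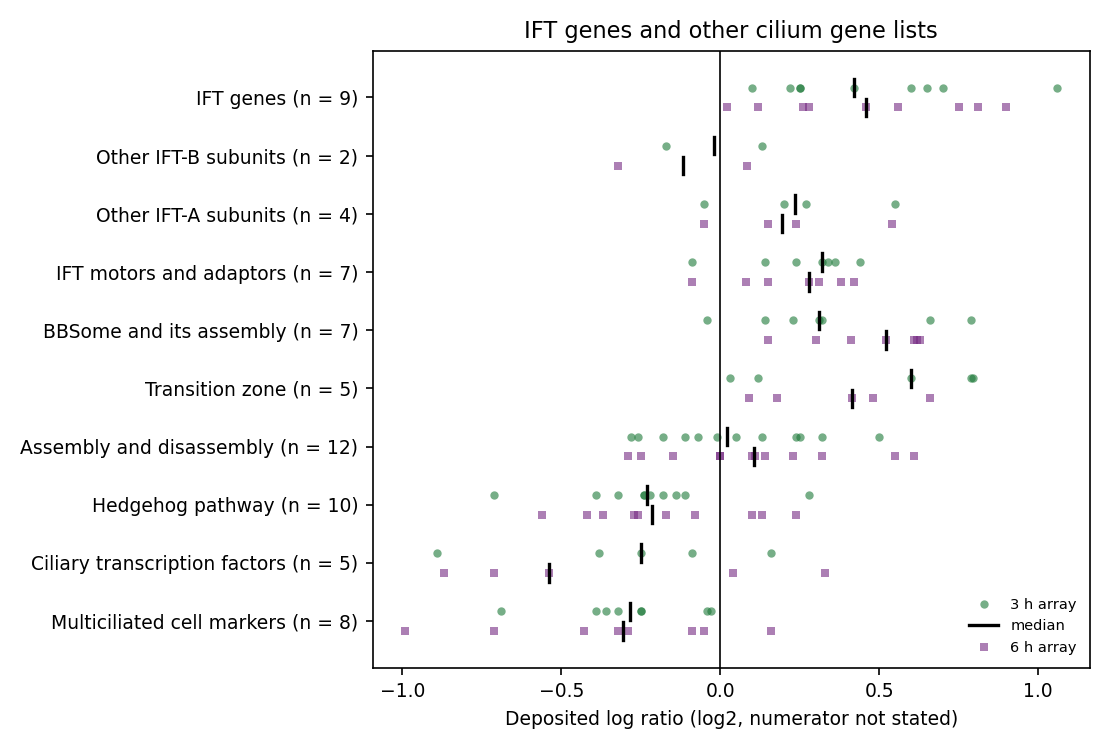
Log ratios (x axis, log2, numerator not stated) of single genes in the IFT family and 9 other cilium gene lists, circles for the 3 h array and squares for the 6 h array, with black bars for medians. The IFT genes have medians of 0.42 and 0.46, and the other IFT-B subunits (n = 2) and the Hedgehog, transcription factor and multiciliated cell lists have medians below 0 at both times.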

How the data were processed

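The deposited table listed 24267 probes, with a log2 ratio for 20503 on the 3 h array and 20337 on the 6 h array (19781 shared), and a median of 0 on each. The log base is not stated and base 2 was assumed. What the authors did for background, normalization and spot filtering is not given in the sources used here. Per the labels, amplified amino allyl RNA was coupled to the dyes. GEO's platform annotation named 1 gene for 13395 probes, left 10872 unnamed and gave 0 probes several genes. The RefSeq table held 10822 of these names as current symbols, 2446 became current through a unique synonym, and 127 with several candidates stayed as listed. Values of probes of one gene were averaged (Python 3.11.15, pandas 2.3.3), checked on simulated data. The members and lists were chosen with earlier results of these data known. Named were all members, all genes of the IFT, motor and BBSome lists, the 3 highest and 3 lowest by mean of both arrays of other lists, and the 5 genes nearest to the member farthest from 0. Alternatives covered probe summary, centring, scaling, log base and size.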

Additional observations from a re-analysis of the deposited data

Results flagged for a closer look

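Among the cilium list genes picked by the naming rule, 7 changed sign between the arrays, and none of them has an IFT symbol. Of all named genes, 40.4% were positive and 36.3% negative on both arrays, and the rest changed sign or held a 0. A change of sign is therefore not particular to these list genes. With 1 array per time, the 6 h minus 3 h differences were not tested. WDR19, an IFT-A subunit, had the widest at −0.60, from 0.55 to −0.05. The others were 0.38 for GLI2, 0.34 for BBS5, 0.21 for SMO, 0.20 for WDR35, 0.20 for DNAI1 and 0.13 for RFX2. RAB23, outside that rule and chosen after its values were seen, also changed sign, from −0.07 to 0.32, a difference of 0.39. The SD of this difference between probes of one gene was 0.30.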

How the results depend on the processing

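The members' median ran from 0.39 to 0.61 at 3 h and from 0.42 to 0.66 at 6 h over 7 alternatives, the high ends under natural logs. Since each member has 1 probe, the alternatives for the probe summary could not change its value. Natural logs only multiply every value by a constant. The median difference between times ran from 0.00 to 0.01. The count of members past the size depended on base and size. With natural logs, 2 members at 3 h and 3 at 6 h lay past 2-fold, where the share of all named genes was not computed. At 1.5-fold in base 2 there were 4 and 3 members, against 4.56% and 5.28% of all named genes. Centring on the named genes' median, or on each probe series (chosen after the data were seen), left 8 of 9 members above 0 on both arrays. Symbols as listed could not be used, since no member was listed under an IFT name. No spot intensities were used here, so signal over background is unknown. No paired analysis was possible because each time has 1 array and the labels carry no replicate numbers.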

Other observations

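A probe listed as C11orf2, an older name of both IFT46 and VPS51, had 0.19 at 3 h and 0.23 at 6 h and was left out of the members because its name does not settle the gene. Some cilium genes had a value on 1 array. PTCH1, the Hedgehog receptor gene, had 0.95 at 3 h, CFAP53 0.53, DNAH9 −0.46 and TTBK2 −0.42, and at 6 h CDON had −0.09 and RFX1 −0.03.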
